A study of Arabidopsis thaliana with 16 samples.

Results

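Lysine 2-hydroxyisobutyrylation (Khib) over genes was compared between sant-null, a quadruple mutant, and the wild type Col-0 of Arabidopsis thaliana. Genes were joined by locus, and those spanning at least 1000 bp with at least 1 RPKM (reads per kilobase of gene, scaled to library size) in both genotypes were kept, which left 22895 of 32548 genes. Of the genes set aside, 9077 were shorter than 1000 bp and 576 were long but below 1 RPKM in either genotype. The lowest value inside the limit was 1.003 RPKM and the highest outside it was 0.99989 RPKM. The 84 genes from 1 to 1.1 RPKM and the 64 genes from 0.9 RPKM up to the limit are separated only by a few reads.

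The 4 genotypes of the series were the wild type, the sant-null quadruple mutant, hda6 (from EMS mutagenesis) and hda9 (a T-DNA insertion line), each as whole seedlings without treatment. All were 12 days old, grown at 22 °C with 16 h of light. The names of the 4 mutated genes, and how the mutations were made, are not given in the sources used here. Each genotype had 2 ChIP and 2 input libraries, but the tables hold 1 ChIP value per genotype, so differences could not be checked against replicates and were not tested. The recovered depths were 18.6 M reads in Col-0 and 12.0 M in sant-null, of which 11.2 M and 7.84 M lay in genes. Intervals of 95% given with a fold are exact conditional (Clopper-Pearson) intervals for counting error only, and ChIP reads are not independent molecules. In whole seedlings, fewer cells of a type and less of the mark per cell cannot be told apart. Input values were not used here, so more of the mark and more DNA at a locus cannot be told apart either.

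Khib is an acyl mark on histone lysines that lies over the bodies and starts of active genes. SANT domains are found in subunits of chromatin complexes, among them complexes with histone deacetylases, and HDA6 and HDA9 are deacetylases of the same enzyme family. The mark is known from plants and animals to be removed by some deacetylases, so mutants of these proteins address how its level is set.

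Khib in sant-null depended on how much of the mark a gene carried in the wild type. Genes of the highest decile by Col-0 level had a median of 22.1 RPKM in the wild type and 19.6 in sant-null. In decile 3 the medians were 3.56 and 5.43 RPKM, and in the lowest decile 1.86 and 2.60 RPKM. On the scale of the log2 ratio of (RPKM + 1), the median over all genes was 0.30, and relative to it the medians of these deciles were -0.53, 0.20 and 0.04. In RPKM, which is relative to each library, the highest and lowest deciles thus lay closer together in sant-null than in Col-0. The level filter had set aside 309 long genes below 1 RPKM in sant-null only and 53 in Col-0 only. How far this raised the sant-null median of the lowest decile was not tested. The 2 deacetylase mutants were put through the same steps against the same Col-0 values, which all 3 comparisons share. In the highest decile, hda6 had a centred median of -0.17 and hda9 one of -1.13. In the lowest decile hda6 had -0.16 and hda9 0.58. The Col-0 level enters both the deciles and the ratio, and the part this plays in the slope was not tested.

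**Figure D1:**
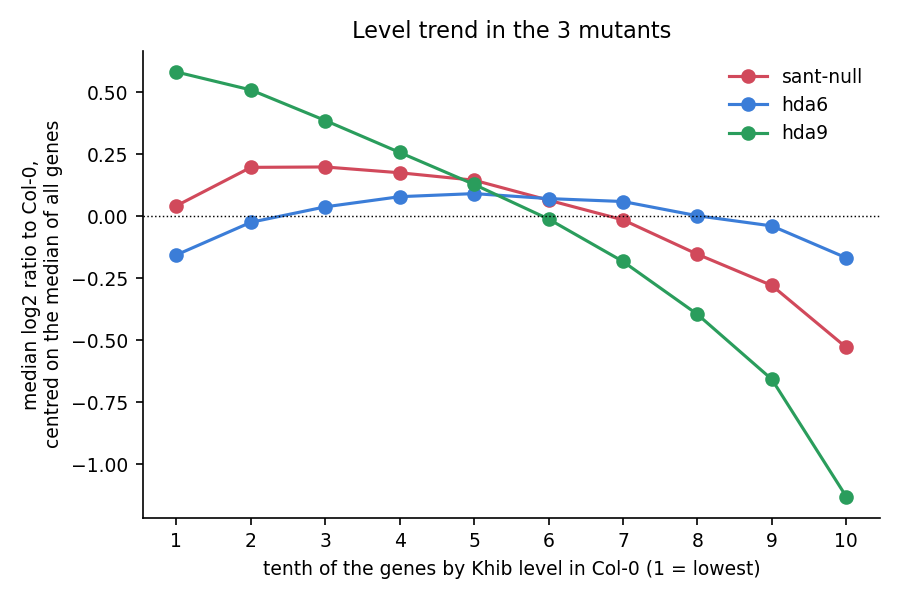
Median log2 ratio of (RPKM + 1) to Col-0, centred on the median of all 22895 genes (vertical axis), in deciles of the genes by Col-0 Khib level (horizontal axis, 1 is the lowest), with 1 line per mutant. In sant-null the line lies near 0.20 in deciles 2 and 3 and reaches -0.53 in the highest, between the lines of hda6 and hda9 there.

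The ratio was therefore also corrected for the Col-0 level, by subtracting a smooth (lowess) trend. All values called corrected below are log2 differences from this trend at the wild-type level of the gene. After this step the corrected log2 ratio had a standard deviation of 0.31, with 5% of genes below -0.54 and 5% above 0.49. At 1.5-fold, 583 genes (2.55% of all tested) were higher in sant-null and 885 (3.87%) were lower. These calls were uneven by level: of 2290 genes in the highest decile 94 were higher and 33 lower. Of 2290 genes in decile 8, 39 were higher and 98 lower. Each point of the trend is fitted over a fraction of 0.3 of the genes, so at the highest levels it also draws on less marked genes. The part this plays in the calls was not tested. Before the correction, centred on the median only, 1062 genes (4.64%) were higher and 1939 (8.47%) lower. Counting error alone gave a root mean square deviation of 0.17 in the lowest decile and 0.0858 in the highest, against observed deviations of 0.36 and 0.31. Short genes spread more: at 1000 to 1500 bp 5.25% were higher and 5.17% lower, and at 6000 bp or more 0.225% and 2.37%. The 5 chromosomes had medians from -0.01 to 0.01. Among 8538 pairs of adjacent genes at most 2000 bp apart that overlap no other gene, the corrected ratios of the 2 neighbours had a correlation of 0.11, and this was 0.15 for the 5271 pairs on the same strand. These pairs share libraries and reads at their borders, and the correlation is given as a description.

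**Figure D2:**
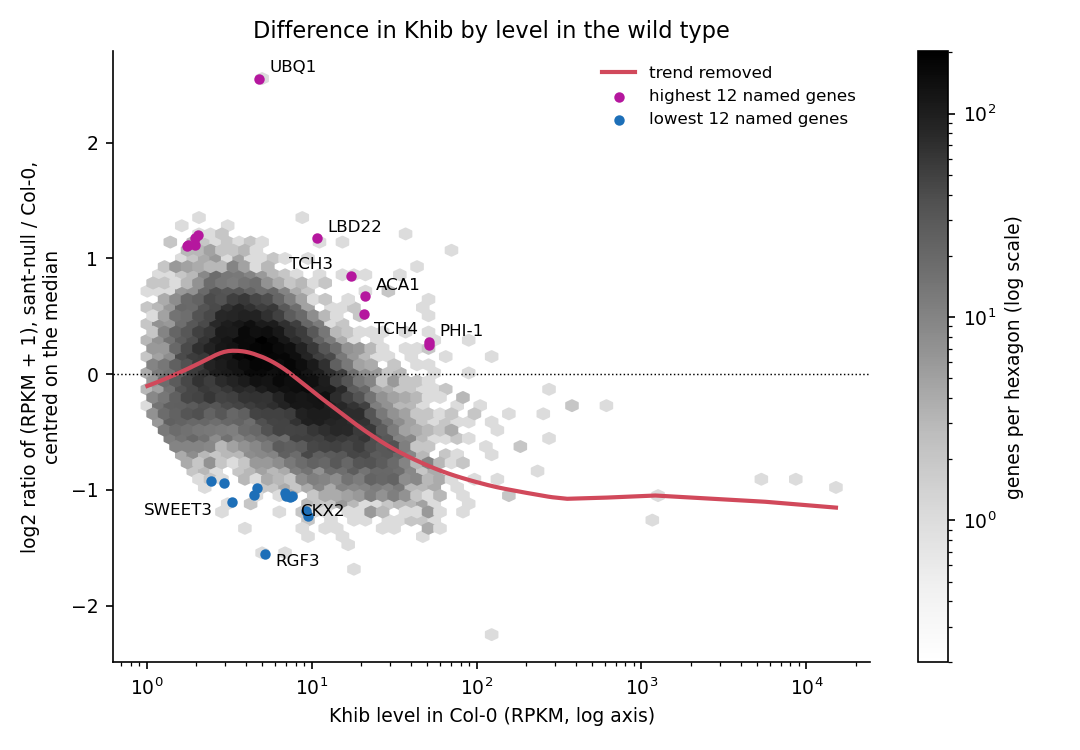
Log2 ratio of (RPKM + 1) in sant-null to Col-0, centred on the median (vertical axis), against the Khib level in Col-0 in RPKM (horizontal log axis), with genes counted per hexagon and the trend that was removed as a line. The named genes with the 12 highest and 12 lowest corrected ratios lie away from the line, with UBQ1 far above all others at a Col-0 level of 4.77 RPKM.

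Among the named genes, the highest corrected ratio was at UBQ1, which encodes a ubiquitin fused to a protein of the large ribosomal subunit. It spans positions 19505379 to 19506932 of chromosome 3 (TAIR10) and had 4.77 RPKM in the wild type, 40.9 in sant-null, 8.45 for hda6 and 6.97 for hda9. Its value in sant-null thus stood apart from those of the other genotypes, with a corrected log2 ratio of 2.39. The gene before it, AT3G52580, had 5.70 RPKM in the wild type and 4.85 in sant-null, and the invertase gene CWINV2 beyond it had 6.69 and 14.8 RPKM. Their corrected ratios were -0.61 and 0.68, so both neighbours lay far below UBQ1. LBD22, a gene of the lateral organ boundaries domain factors (chromosome 3, 4559619 to 4561020), had 10.7 RPKM in the wild type, 31.7 in sant-null, 12.5 for hda6 and 10.6 for hda9. The small nuclear RNA gene U6-26, which lies close to LBD22, had 8.52 RPKM in the wild type and 21.5 in sant-null, from 16 and 26 reads. It had 4.14 RPKM for hda6 and 24.5 for hda9, so sant-null did not stand apart there. The authors' deposited table lists 2 islands of Khib over LBD22, of which the first has a fold of 0.957 and the second of 5.08, so the higher value lies over only part of the gene.

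TCH3, ACA1 and TCH4 were strongly marked genes among the 12 highest. TCH3, which encodes a calmodulin-like calcium sensor (chromosome 2, 17137037 to 17139700), had 17.4 RPKM in the wild type, 39.9 in sant-null, 29.6 for hda6 and 17.0 for hda9. Its fold between sant-null and Col-0 was 2.30 (2.10 to 2.51) from 1277 and 862 reads, and its corrected log2 ratio was 1.25. ACA1, a calcium-transporting ATPase gene (chromosome 1, 9671632 to 9676307), had 21.1 RPKM in the wild type, 42.5 in sant-null, 30.7 for hda6 and 22.7 for hda9. In RPKM sant-null was the highest of the 4 genotypes at both genes and hda6 the second. Corrected for level, TCH3 had 0.61 in hda6 and 0.35 in hda9, and ACA1 had 1.17 in sant-null, 0.45 for hda6 and 0.65 for hda9. TCH4, which encodes a xyloglucan-modifying enzyme of the cell wall, had 20.7 RPKM in the wild type, 37.6 in sant-null, 25.9 for hda6 and 17.5 for hda9. Its corrected ratio was 1.01 and its centred one 0.52, under 1.5-fold. In the authors' deposited table, the island at TCH4 has a fold of 1.62 with 448 reads in sant-null and 386 in Col-0. TCH3, ACA1 and UBQ1 overlap another annotated gene, as does PUP14 below, so their reads cannot be separated from those of that gene.

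TCH3 and TCH4 led to a look at the whole set of touch genes, chosen after the values were seen. The set has 4 members past the filter with a median corrected log2 ratio of 0.59, and the 2 at least 1.5-fold higher (2.55% over all genes) were TCH3 and TCH4, the genes that prompted the set. The calmodulin-like gene TCH2 had 0.17, and the calmodulin gene CAM1 had -0.25. A further set chosen after the values were seen comprises the 16 genes named early responsive to dehydration (ERD), which were first found by their rapid induction in drying plants. All 16 passed the filter, 15 lay above 0, 5 were at least 1.5-fold higher and 0 lower (2.55% and 3.87% over all genes), and the median was 0.41. The 5 include UBQ1, ERD10 and ERD15, whose values led to the choice of the set. When only centred, 11 lay above 0 and the median was 0.14. The corrected median of the same genes was 0.22 for hda6 and 0.23 for hda9.

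The dehydrin gene ERD10 had 36.9 RPKM in the wild type and 52.3 in sant-null, a fold of 1.42 (1.30 to 1.54) and a corrected log2 ratio of 0.89. ERD15, a gene of abscisic acid responses, had 53.1 and 70.2 RPKM and a corrected ratio of 0.90. When only centred, these 2 genes had 0.19 and 0.09, under 1.5-fold. The dehydrin gene ERD14 had 31.6 and 38.2 RPKM, with 0.61 after the correction but -0.04 when only centred. ERD3, a putative methyltransferase gene, was the member below 0, with 5.13 RPKM in the wild type and 5.78 in sant-null. The ERD set includes UBQ1, the HSP70 gene ERD2 and the HSP90 gene HSP81-2. It also holds the glutathione transferase genes ERD9, GSTF6 and GSTF10. All of these are also counted in their families below.

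PHI-1, a phosphate- and cell-cycle-related gene of the exordium family, had 51.8 RPKM in the wild type, 77.9 in sant-null, 84.4 for hda6 and 21.2 for hda9, so that hda6 and not sant-null was highest. PUP14, which encodes a cytokinin transporter of the purine permease family, had 51.5 RPKM in the wild type and 76.1 in sant-null, and its 47.9 in hda6 lay below Col-0. Their folds were 1.504 (1.39 to 1.63) and 1.48 (1.37 to 1.59), and their corrected log2 ratios 1.07 and 1.05. When only centred they had 0.28 and 0.25, under 1.5-fold, so their place among the 12 highest rests on the trend removed. The other genes of the 12 highest started from low levels. PLPB, which encodes a protein with light-sensing PAS and LOV domains, had 1.97 RPKM in the wild type and 7.27 in sant-null, with 4.38 for hda6 and 6.79 for hda9. SON1, an F-box protein gene of defence, had 1.76 and 6.36 RPKM in the wild type and sant-null and 10.7 in hda9. For SYP61, ISU3 and cycp3;1 the Col-0 values were 1.78 to 2.04 RPKM and the sant-null values 6.42 to 7.64, from as few as 39 reads in Col-0.

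The named genes with the lowest corrected ratios were all weakly or moderately marked in the wild type. RGF3, which encodes a root meristem growth factor peptide (chromosome 2, 1276683 to 1277761), had 5.23 RPKM in the wild type, 1.62 in sant-null, 2.77 for hda6 and 2.46 for hda9. It was lower in all 3 mutants, with a fold of 0.310 (0.184 to 0.499) in sant-null from only 21 and 105 reads. SWEET3, a gene of the sugar exporter family (chromosome 5, 21572143 to 21574329), had 3.27 RPKM in the wild type, 1.45 in sant-null, 2.59 for hda6 and 2.75 for hda9. LigB, which encodes a dioxygenase, had 4.45 RPKM in the wild type and 2.26 in sant-null, but 5.46 for hda6 and 7.07 for hda9. The cytochrome c gene CYTC-2 had 4.69 RPKM in the wild type, 2.54 in sant-null, 5.63 for hda6 and 4.65 for hda9. In RPKM sant-null was the lowest of the 4 genotypes at both genes. Corrected for level, LigB had -1.22 in sant-null, -0.05 for hda6 and -0.17 for hda9, and CYTC-2 had -1.15, -0.07 and -0.71, so that CYTC-2 was also past 1.5-fold lower in hda9. The folds of sant-null had counting intervals of 0.342 to 0.738 and 0.386 to 0.750.

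FRO1, which encodes a subunit of mitochondrial complex I, had 9.23 RPKM in the wild type, 4.56 in sant-null, 7.52 for hda6 and 5.70 for hda9. The authors' deposited table has an island at FRO1 with a fold of 0.504, from 42 reads in sant-null and 118 in Col-0. MYB121, a transcription factor gene, had 6.88 RPKM in the wild type and 3.78 in sant-null, and UMAMIT20, of an amino acid exporter family, had 7.03 and 3.77. The Nudix hydrolase gene NUDT17, the defensin-like gene LCR58 and the RNA-binding protein gene GR-RBP6 had corrected log2 ratios of -1.13, -1.10 and -1.05. In hda6 these genes had -0.61, -0.58 and -0.45, and in hda9 -1.44, -1.08 and -0.59. MYB121 had -0.77 for hda6 and -0.93 for hda9, and UMAMIT20 had -0.86 and -0.55. All of these were thus lower in the other mutants too.

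CKX2 and AHP3 among the lowest genes act on the hormone cytokinin. CKX2, which encodes an enzyme that degrades cytokinin (chromosome 2, 8444204 to 8447355), had 7.35 RPKM in the wild type, 3.94 in sant-null, 6.25 for hda6 and 4.84 for hda9, a fold of 0.536 (0.442 to 0.647). AHP3, which encodes a phosphotransfer protein that passes the cytokinin signal from receptors to response regulators, had 2.44 RPKM in the wild type, 1.23 in sant-null, 2.13 for hda6 and 4.80 for hda9. These genes led to a list, chosen after the values were seen, of the cytokinin oxidase and phosphotransfer genes. Of 13 such genes 11 passed the filter, 4 were at least 1.5-fold lower (3.87% over all genes) and 0 higher, and the median corrected ratio was -0.47, against -0.24 for hda6 and -0.33 for hda9. The 4 include CKX2 and AHP3, which prompted the list. CKX2, AHP3 and AHP4, all among the 4, overlap another annotated gene, as do FRO1 and GR-RBP6 above. Their reads cannot be separated from those of that gene. CKX4 had 11.2 RPKM in the wild type and 7.22 in sant-null, CKX3 had 9.64 and 7.50, and CKX1 went the other way with 3.07 and 6.77.

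**Figure D3:**
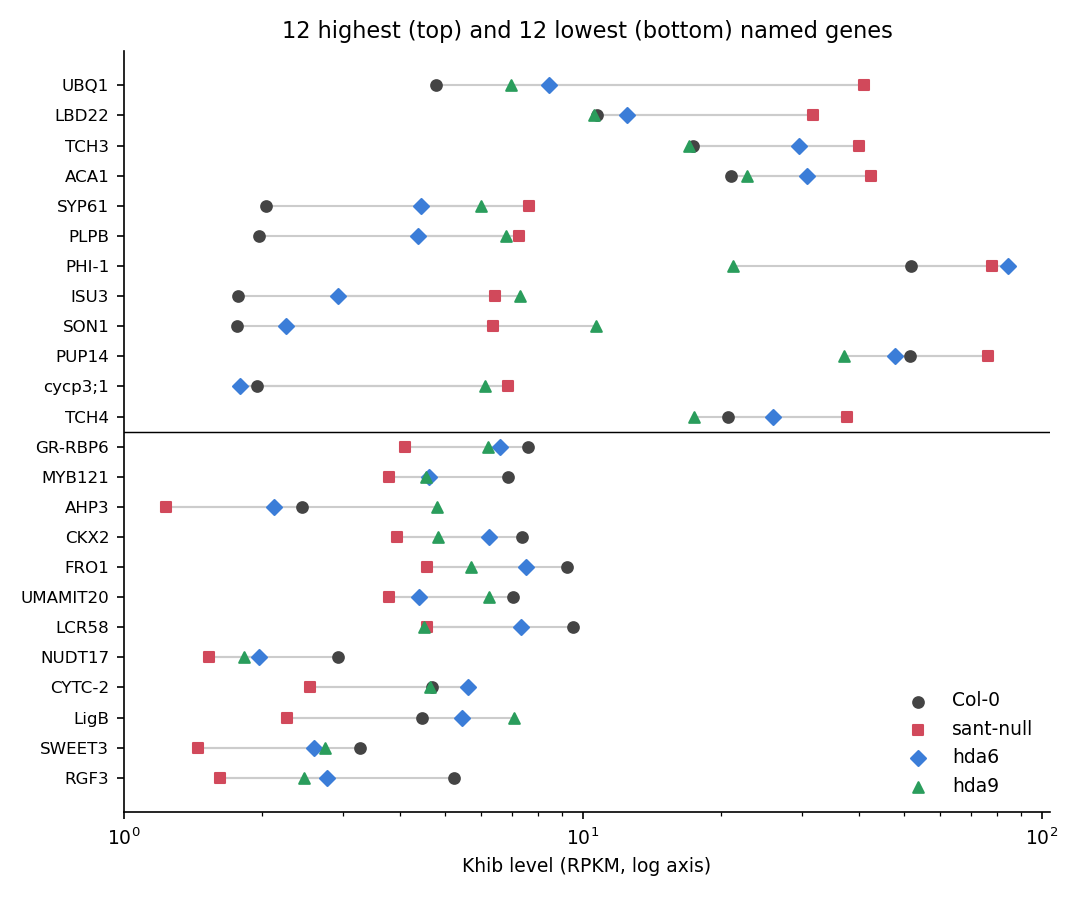
Khib level in RPKM (horizontal log axis) of the 12 highest and the 12 lowest named genes by corrected ratio (rows), with 1 point per genotype. For UBQ1 and LBD22 the sant-null point stands alone to the right of the other 3, while for RGF3 all 3 mutants lie left of Col-0 at 5.23 RPKM.

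Gene families were then ranked by the median corrected ratio of their members, using 98 families matched by gene name, of which 96 had at least 6 members past the filter. These families hold 2834 genes. Medians ran from -0.36 to 0.38, and 84 families lay within 0.2 of 0, so that most families differed little from the trend at their level. Read against the 2.55% of all genes that were higher and the 3.87% that were lower, few families had many members past 1.5-fold, and the ranking describes shifts of whole families that are small beside the spread among genes. Several medians depend on the trend removed. When only centred, the median was 0.10 for the ubiquitin genes, 0.15 for the 3-ketoacyl-CoA synthases and 0.10 for the ACC synthases. It was -0.47 for the LBD genes, -0.15 for the response regulators, -0.08 for the SWEET genes, -0.09 for the beta-glucosidases and -0.11 for the serine carboxypeptidase-like genes. In hda9, against the same Col-0 values, the 6 families at each end shifted the same way. Corrected medians there were -0.41 (CLE), -0.20 (LBD), -0.26 (response regulators), -0.29 (SWEET), -0.30 (beta-glucosidases) and -0.17 (serine carboxypeptidase-like). At the high end they were 0.25 (ubiquitin), 0.19 (3-ketoacyl-CoA synthases), 0.24 (glutamate receptor-like), 0.30 (organelle RNA editing), 0.07 (glutathione transferases) and 0.23 (ACC synthases). The direction at both ends was thus shared with hda9. In hda6 the low families had 0.03 (CLE), -0.06 (LBD), -0.05 (response regulators), -0.06 (SWEET), -0.06 (beta-glucosidases) and -0.14 (serine carboxypeptidase-like). The high ones had 0.22 (ubiquitin), 0.09 (3-ketoacyl-CoA synthases), -0.02 (glutamate receptor-like), 0.06 (organelle RNA editing), 0.09 (glutathione transferases) and 0.10 (ACC synthases). CLE and glutamate receptor-like genes thus lay on the other side of 0 in hda6.

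At the top were the ubiquitin genes, which encode the protein tag for degradation as chains or fused to ribosomal proteins. Of 14 such genes, 10 passed the filter, 9 lay above 0, 3 were at least 1.5-fold higher and 0 lower, and the median was 0.38. When only centred, 1 was higher and 1 lower. After UBQ1, the polyubiquitin genes UBQ10 and UBQ11 followed with corrected ratios of 0.69 and 0.68. UBQ10 had 76.6 RPKM in the wild type, 82.8 in sant-null, 102 for hda6 and 38.5 for hda9, and UBQ11 had 98.6, 102, 105 and 37.5. Their levels in sant-null thus lay close to Col-0 where other strongly marked genes were lower, and when only centred their ratios were -0.19 and -0.25. UBQ3 had 10.5 RPKM in the wild type and 17.0 in sant-null, and UBQ13 lay lowest with 16.6 and 11.3. Polyubiquitin genes hold near-identical repeats, so reads may be split between them in ways that are not given in the sources used here.

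The 3-ketoacyl-CoA synthases, which elongate fatty acids for wax and other lipids, had a median of 0.27, and 18 of 21 members lay above 0. KCS21 had 4.27 RPKM in the wild type, 10.4 in sant-null, 7.42 for hda6 and 12.4 for hda9, the 1 member at least 1.5-fold higher. KCS1, with a stronger mark, had 18.9 and 24.2 RPKM in the wild type and sant-null. KCS9 had 3.62 and 8.48, and KCS19 lay lowest with 13.6 and 12.2.

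The glutamate receptor-like genes, which encode cation channels used in wound and defence signals, had the narrowest range of the 12 families at the ends of the ranking. All 19 members lay above 0, from 0.01 to 0.64, with a median of 0.25 in sant-null, -0.02 for hda6 and 0.24 for hda9. GLR2.5 had 3.57 RPKM in the wild type, 9.08 in sant-null, 3.36 for hda6 and 10.5 for hda9, and was the 1 member past 1.5-fold. GLR2.1 had 5.37 RPKM in the wild type and 11.2 in sant-null, GLR2.3 had 4.25 and 9.15, and GLR2.4 had 5.85 and 10.9. GLR3.6 was nearest to 0, with 9.59 and 11.1 RPKM. Members of the second clade make up the 4 highest, and some genes of the family stand in tandem arrays.

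The pentatricopeptide repeat proteins that edit or process organelle transcripts had a median of 0.24 over 27 genes, of which 24 lay above 0 and 0 were past 1.5-fold in either direction. OTP84, which acts in chloroplasts, had 5.68 RPKM in the wild type, 12.0 in sant-null, 8.84 for hda6 and 11.2 for hda9. MEF1, which acts in mitochondria, had 3.84, 8.72, 4.88 and 12.6 RPKM in the same order. OTP70 had 7.87 RPKM in the wild type and 15.2 in sant-null, MEF20 had 5.26 and 11.2, and OTP43 lay lowest with 16.5 and 14.4.

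Glutathione transferases, which conjugate toxic compounds, had a median of 0.24 over 42 members, with 29 above 0, 4 at least 1.5-fold higher and 0 lower. GSTU25 had 2.64 RPKM in the wild type, 7.87 in sant-null, 3.20 for hda6 and 10.1 for hda9, from 54 and 104 reads in the first 2. GSTU9 had 3.81 and 10.1 RPKM in the wild type and sant-null, GSTF4 1.75 and 4.56, and GSTU26 2.47 and 6.28. GSTU4 went the other way with 2.32 and 2.00 RPKM. The genes for synthases of the ethylene precursor ACC had a median of 0.21 over 11 members. ACS6, a stress-induced member, had 50.5 RPKM in the wild type, 61.6 in sant-null, 50.5 for hda6 and 28.4 for hda9, with a corrected ratio of 0.77 and a centred one of -0.02. ACS10 had 7.08 and 14.1 RPKM, ACS9 3.37 and 6.89, ACS4 5.10 and 9.58, and ACS11 lay lowest with 3.63 and 4.82.

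**Figure D4:**
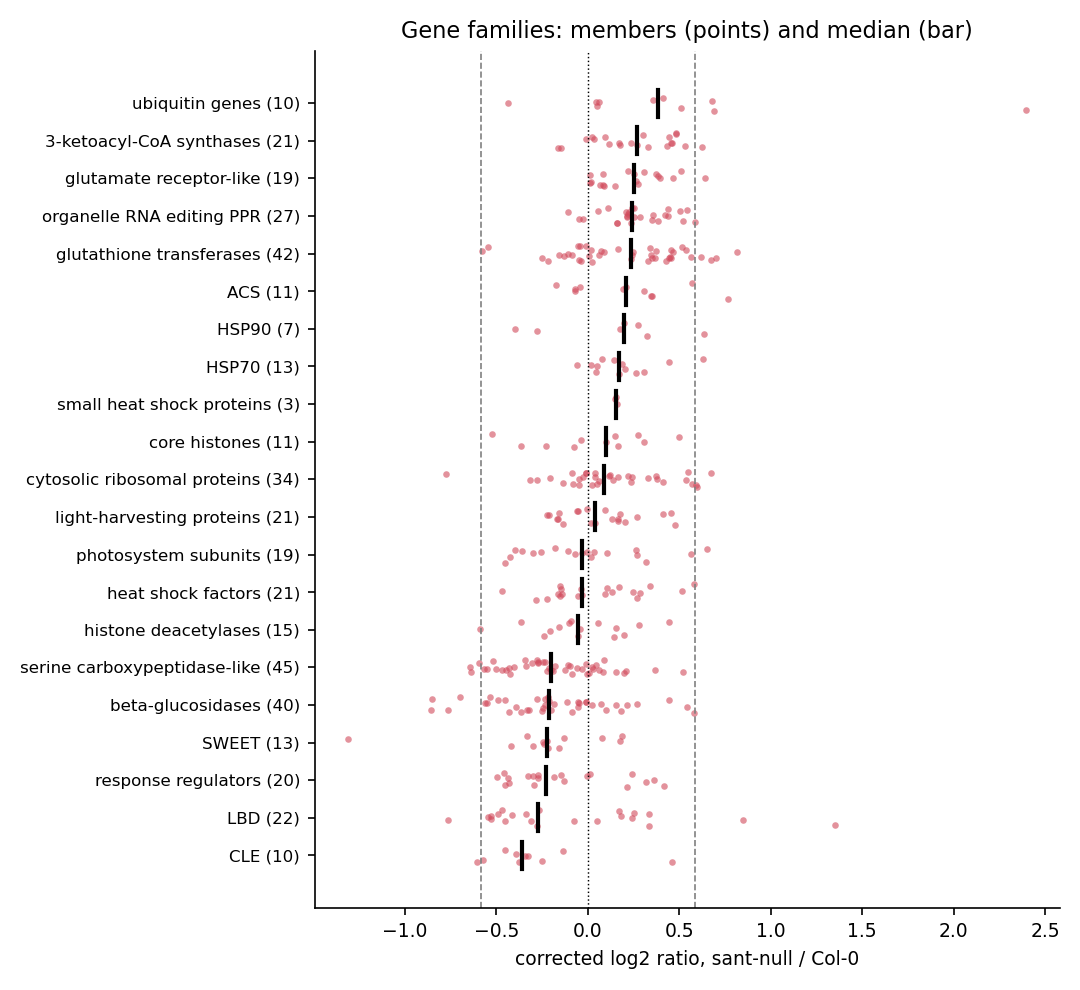
Corrected log2 ratio of Khib, sant-null over wild type (horizontal axis) for each member past the filter (points) of the 6 highest and 6 lowest families and of the heat, photosynthesis, histone, ribosome and deacetylase families (rows, number of members in brackets), with the median as a bar and dashed lines at 1.5-fold. Members of each of the 6 highest and 6 lowest families spread around their bar, and the medians run from -0.36 for CLE to 0.38 for the ubiquitin genes.

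At the low end, the CLE genes, which encode short signalling peptides of meristems and vessels, had a median of -0.36 over the 10 of 30 genes that passed the filter. The other 20 were shorter than 1000 bp. Of the 10, 9 lay below 0 and 1 was at least 1.5-fold lower. This was CLE44, with 3.99 RPKM in the wild type and 3.63 in sant-null. The difference is small, but the median log2 ratio in RPKM over all genes was 0.30. CLE25 had 2.02 and 1.65 RPKM, CLE17 9.28 and 7.60, CLE11 1.49 and 1.33, and CLE43 went the other way with 1.95 and 4.27.

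The lateral organ boundaries domain genes, which encode transcription factors of root and leaf formation, ran from -0.77 to 1.35, with a median of -0.27 over 22 members. LBD25 had 9.47 RPKM in the wild type, 6.01 in sant-null, 8.47 for hda6 and 4.75 for hda9. LBD13 had 20.1 and 12.0 RPKM in the wild type and sant-null, LBD31 had 11.6 and 8.17, and LBD27 had 8.44 and 6.77. Against these, LBD22 and LBD29, with 3.01 and 9.18 RPKM, were at least 1.5-fold higher, so that 2 members were higher and 1 lower.

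Response regulators of the cytokinin pathway, the last step of that signal in the nucleus, had a median of -0.23 over 20 members, with 14 below 0 and 0 past 1.5-fold. RR3 had 8.40 RPKM in the wild type, 6.91 in sant-null, 9.82 for hda6 and 5.44 for hda9. ARR4 had 8.54, 7.23, 10.1 and 6.76 RPKM in the same order. ARR15 had 1.29 and 1.00 RPKM in the wild type and sant-null, and RR18 lay highest with 8.34 and 13.8. The SWEET sugar transporters had a median of -0.22 over 13 members, with 10 below 0, and SWEET3 was the 1 member past 1.5-fold. SWEET11, which exports sucrose from leaf phloem cells, had 4.45 RPKM in the wild type and 4.68 in sant-null, SWEET9 had 3.53 and 4.23, and SWEET4 had 1.19 and 1.05.

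Beta-glucosidases, which release defence compounds and lignin precursors from sugar conjugates, had a median of -0.21, with 30 of 40 members below 0, 4 at least 1.5-fold lower and 0 higher. BGLU46 had 1.86 RPKM in the wild type, 1.03 in sant-null, 1.48 for hda6 and 1.75 for hda9. BGLU21, a root gene, had 4.29 RPKM in the wild type and 3.11 in sant-null, BGLU29 had 3.30 and 2.60, and BGLU45 had 2.24 and 1.66. Serine carboxypeptidase-like genes had a median of -0.20, with 33 of 45 members below 0, 3 lower and 0 higher. Their lowest members scpl6, scpl21, scpl14 and SCPL43 had corrected ratios from -0.57 to -0.64, and scpl36 lay highest with 8.04 RPKM in the wild type and 14.6 in sant-null.

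Among larger groups, the homeobox genes, which encode transcription factors of patterning, had a median of -0.16, with 59 of 78 members below 0, 11 at least 1.5-fold lower and 0 higher. Their corrected median was -0.04 for hda6 and -0.24 for hda9. The members named here were chosen after their values were seen. WOX11, which acts in root founder cells, had 8.60 RPKM in the wild type and 4.92 in sant-null, WOX4, a gene of the vascular cambium, had 10.5 and 6.62, and KNAT3 had 15.2 and 8.43. Cyclins had a median of -0.15, with 23 of 28 members below 0. All 574 transcription factor genes in the families together had a median of -0.07, with 21 higher (3.66%) and 41 lower (7.14%). U-box ubiquitin ligases had a median of 0.17, with 3 of 22 higher and 0 lower. When only centred, their median was -0.05, with 1 higher and 2 lower. PUB22, a regulator of immune responses, had 9.29 RPKM in the wild type and 21.2 in sant-null, and PUB23, its close relative, had 58.3 and 65.2. These ligase genes were also chosen after their values were seen.

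The heat genes bear on the thermotolerance named in the title of the series. Heat shock factors, the transcription factors of the heat response, had a median of -0.03 over 21 members, with 10 above 0 and 0 past 1.5-fold in either direction. HSFA6B had 1.59 RPKM in the wild type, 3.82 in sant-null, 1.45 for hda6 and 5.19 for hda9. HSFC1 had 23.4 and 28.7 RPKM in the wild type and sant-null, and HSFB2A had 7.67 and 12.4. AT-HSFA7B had 25.9 RPKM in the wild type, 15.1 in sant-null, 23.7 for hda6 and 13.7 for hda9.

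Chaperone families lay higher. Of the 7 HSP90 genes 5 lay above 0 with a median of 0.20, and the heat-induced HSP90.1 had 3.78 RPKM in the wild type, 9.49 in sant-null, 4.68 for hda6 and 12.5 for hda9, a fold of 2.51 (2.08 to 3.04). Hsp89.1, a mitochondrial form, had 4.95 and 5.19 RPKM. Of the 13 HSP70 genes 12 lay above 0 with a median of 0.17, which was -0.15 when only centred. Their corrected median was 0.17 for hda6 and 0.23 for hda9. Their member ERD2 had 8.96 RPKM in the wild type and 16.9 in sant-null, MTHSC70-2 of mitochondria had 7.77 and 13.5, and HSC70-1 of the cytosol had 20.2 and 22.3. Only 3 of 7 small heat shock protein genes were long enough, too few for the ranking. ATHSP22.0, HSP21 and HSP23.6-MITO had corrected ratios of 0.15 to 0.16.

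The antenna proteins of photosynthesis show how far the level trend decides a family's place. Centred on the median only, the 21 light-harvesting genes had a median of -0.71, and 13 of them were at least 1.5-fold lower. After the correction the median was 0.04, with 12 above 0 and 0 past 1.5-fold. CAB1 had 139 RPKM in the wild type and 92.4 in sant-null, and LHB1B2 had 169 and 99.4, with corrected ratios of 0.09 and -0.06, close to the trend at these levels. LHCB3 had 21.1 RPKM in the wild type, 25.9 in sant-null, 27.7 for hda6 and 15.9 for hda9, and LHCA4 had 33.1, 34.3, 30.0 and 20.5. These 2 lay above the trend, with corrected ratios of 0.47 and 0.41. Several antenna genes are near-identical copies, and their reads may be shared. Photosystem subunits had medians of -0.57 centred and -0.03 corrected over 19 genes. PSBP-2 had 9.36 and 17.6 RPKM, PSAF 19.1 and 25.9, PSAH-1 14.6 and 10.3, and PSBY 25.7 and 15.5.

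Core histone genes had a median of 0.10 over the 11 of 21 genes that passed the filter, which was -0.18 when only centred. The histone variant gene HTA11 had 11.5 RPKM in the wild type and 8.30 in sant-null, and HTA8, of the same H2A.Z class, had 3.87 and 8.73. Cytosolic ribosomal protein genes had a median of 0.09 over 34 members, with 3 higher and 1 lower. EMB3010 had 6.13 RPKM in the wild type and 13.9 in sant-null, RPL16B had 6.27 and 13.3, and AT3G23390 had 4.29 and 3.32. Histone deacetylase genes had a median of -0.05 over 15 members. HDA14 had 6.29 and 5.30 RPKM, HDA2 had 3.12 and 6.95, HDA6 had 11.8 and 11.7, and HDA9 had 2.33 and 2.89.

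A set of 4 loci was listed as possible SANT-domain genes, a name that the reference used for gene symbols does not give them. AT2G47820 had a corrected log2 ratio of 1.95 in sant-null, -0.18 for hda6 and 1.85 for hda9. Its neighbours ABCC4 and AT2G47830 had -0.11 and -0.21 in sant-null. AT1G09050 had 0.86 in sant-null, 0.52 for hda6 and 1.46 for hda9, and AT1G55050 had -1.28, -0.72 and -1.39 in the same order. Both were thus further from 0 in hda9 than in sant-null. AT1G55050 was strongly marked, with 125 RPKM in the wild type, 31.8 in sant-null, 63.0 for hda6 and 12.3 for hda9. AT1G09040 failed the level filter with 0.561 RPKM in sant-null, and at 4.94 RPKM its Col-0 value was the highest of any long gene set aside, the next being 2.45. No library label can be checked from these values, since Khib over a gene and its DNA cannot be told apart.

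Outside the named genes, a run of genes on chromosome 2 stood apart by position. In windows of 200 kb with at least 15 genes, 513 in all, the 2 highest medians of the corrected ratio were 0.94 and 0.63, in adjacent windows from 3.2 to 3.6 Mb, and the next was 0.18. This region holds a nuclear insertion of most of the mitochondrial genome, as is known from the genome sequence. It was chosen after the values were seen. Of 42 genes there 27 (64.3%) were at least 1.5-fold higher in sant-null and 4 lower, against 84 of the 3493 other genes of the chromosome (2.40%). The 27 are not all separate, since AT2G05205 and AT2G05215 have the same coordinates and reads. Others, such as AT2G07658 and AT2G07787, overlap and share reads. The median RPKM of the 42 genes was 28.1 in the wild type, 41.5 in sant-null, 36.04 for hda6 and 22.3 for hda9. Corrected for level, their median was 0.79 in sant-null, 0.34 for hda6 and 0.47 for hda9.

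The highest value of the run was at AT2G05365, with 68.3 RPKM in the wild type, 181 in sant-null, 125 for hda6 and 96.5 for hda9. AT2G07638 had 45.9, 111, 63.3 and 76.8 RPKM in the same order, and AT2G07806 had 32.1, 74.1, 49.5 and 44.7. In all 3 of these genes Col-0 was the lowest of the 4 genotypes. AT2G07734, within the run, went the other way with 5.58, 3.12, 4.48 and 2.40 RPKM. Near the right end of the same windows, where 4 genes lay below 0, the replication gene MCM5 had 6.30 RPKM in the wild type and 7.49 in sant-null, a corrected ratio of -0.16. Reads from the insertion and from mitochondria carry the same sequence, so Khib there and mitochondrial DNA in the library cannot be told apart.

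**Figure D5:**
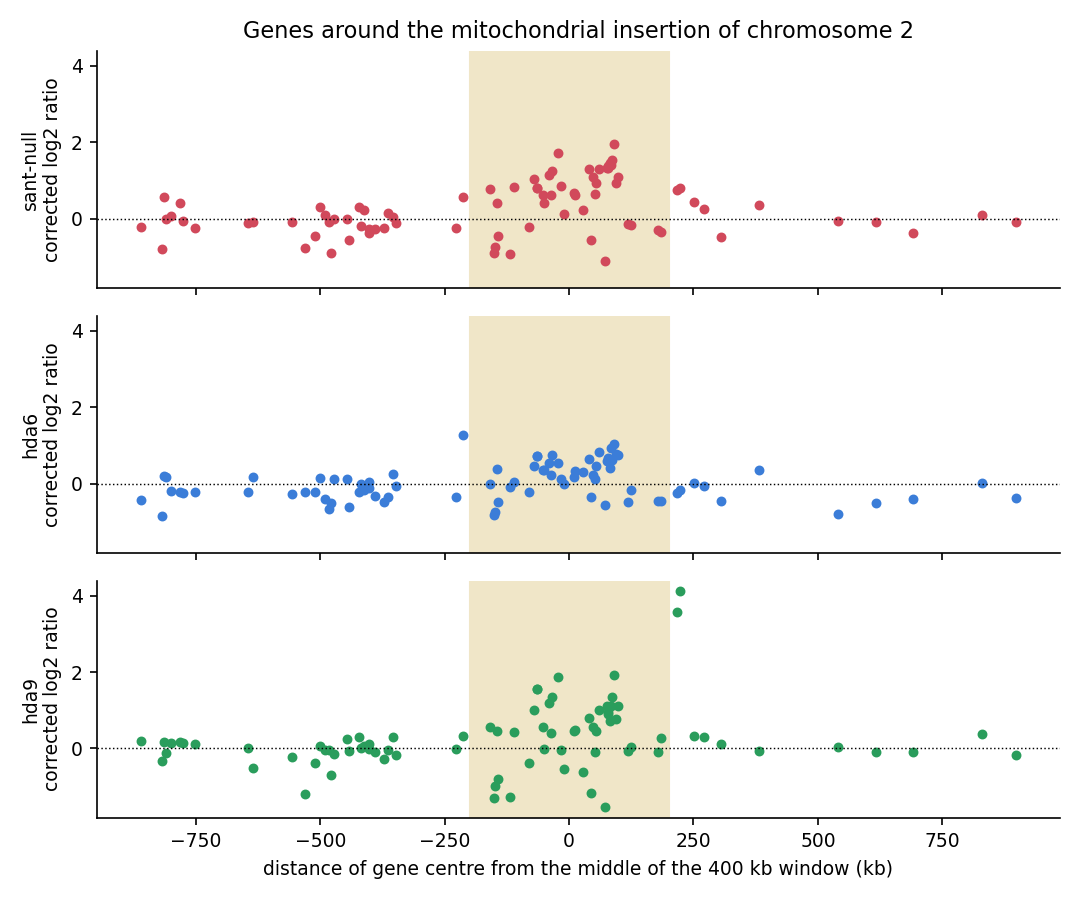
Corrected log2 ratio to Col-0 (vertical axes) of chromosome 2 genes by distance in kb from the middle of the 400 kb window (horizontal axis, shaded window), with 1 panel per mutant and 1 point per gene. In sant-null most genes in the window lie above 0, with a median of 0.79, and in hda6 and hda9 many do too. The 2 genes far above the rest in the hda9 panel lie just right of the window.

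Organ markers were read because organs can make up different shares of a seedling. The 8 root markers had a median corrected ratio of -0.09, with a summed level of 105 RPKM in the wild type and 99.1 in sant-null. Shoot meristem markers had a median of -0.30 over 5 of 6 genes, with sums of 46.8 and 46.1 RPKM. Seed markers had a median of -0.10 over 6 of 8 genes, with sums of 162 and 118 RPKM. None of the markers past the filter was at least 1.5-fold higher or lower. The lowest were the root gene PLT2, with 8.57 RPKM in the wild type and 6.63 in sant-null, and the seed regulator gene LEC2, with 4.41 and 4.32. No marker was at 0 in either genotype, and their part in the results above was not tested. The seed storage genes SESA1, SESA3, CRU3 and CRA1, which seedlings hardly express, had 35.6, 34.7, 29.0 and 26.2 RPKM in the wild type. Of the root markers only SHR, with 29.5 RPKM, lay in that range, and the next was COBL9 with 21.8. These values therefore do not check the tissue.

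Islands of Khib called by the authors were set beside the gene values on chromosomes 3 and 5, because islands on the other chromosomes repeat positions of one another. In the authors' deposited table, 3273 of 9833 genes past the filter there had an island (overlap of at least 1 bp), and 472 of these (14.4%) had one called higher at an FDR under 0.05 and 2209 (67.5%) one called lower. Of 266 genes there at least 1.5-fold higher by the corrected ratio, only 71 (26.7%, against 33.3% of all) had an island. Of these 71 genes, 65 had an island called higher in the authors' deposited table. Of 358 genes that were lower, 150 (41.9%) had an island, and 146 of these had one called lower in the authors' deposited table. The other calls could not be compared with islands. Both sides use the same reads, so this is a comparison of processing steps and not independent evidence.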

How the data were processed

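Khib ChIP-seq of 12-day-old seedlings was analysed from tables. Per the labels, formaldehyde at 1% was applied for 15 min. Per the submitters' processing notes, the upstream tools include SICER 1.0.3, bedtools, CASAVA and Bowtie2 2.2.5, on the TAIR10 build, without their roles. The sources used here do not give the way in which replicates were merged or any use of input. Per the file headers, the authors deposited RPKM values per gene in 4 tables. For islands the authors deposited, per the file headers, read counts per island, the same as RPM, a fold (ratio of normalized counts) in both directions, and a p-value and FDR. Every column was mapped, with 0 left over.

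RPKM times gene length came out as whole reads (tolerance 0.01 reads) for 100% of genes. A count test on these reads was not run, because it would compare 2 pooled libraries and not genotypes. The log2 ratio of (RPKM + 1) was centred on its median, and a lowess trend on the log2 Col-0 level (fraction 0.3, 3 iterations, statsmodels 0.14.6) was subtracted. The ratio understates changes of low genes. Calls are at 1.5-fold, with no test. Steps were tested on simulated reads with counting error only and a trend linear in the log2 level. The spread in the data was wider and the trend curved, so the simulation does not check the calls made here. Named genes are the 12 highest and 12 lowest protein-coding genes with a symbol and at least 100 reads over both genotypes, up to 4 members and 1 opposite member of the 6 highest and 6 lowest families, up to 4 members of the heat, photosynthesis, histone, ribosomal and deacetylase families, the possible SANT loci, HDA6 and HDA9. Families need 6 members. Symbols and gene types only were taken from a TAIR10.1 gene table that holds all 32548 loci. Root, shoot meristem and seed marker lists were read as well. Coordinates are those of the files, counted from 1. The members, families and lists were chosen with earlier results of these data known. No sequences were printed.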

Additional observations from a re-analysis of the deposited data

Results flagged for a closer look

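Among 3990 genes shorter than 1000 bp with at least 100 reads over both genotypes, which the comparison of long genes leaves out, 1 was at least 4-fold higher in sant-null relative to the median. U3B, a small nucleolar RNA gene of 702 bp (chromosome 5, 21887966 to 21888667), had 17.8 RPKM in the wild type, 103 in sant-null, 17.0 for hda6 and 11.3 for hda9. Its centred fold on the RPKM + 1 scale was 4.46, and the next highest short gene had 2.93. The neighbouring gene AT5G53905 had 15.1 RPKM in the wild type, 43.9 in sant-null, 15.9 for hda6 and 13.2 for hda9, and AT5G08065 on the other side had 30.9 and 15.8 in Col-0 and sant-null. As at UBQ1 and LBD22, the sant-null value of U3B stood apart from those of the other genotypes. Input values were not used, so more of the mark and more DNA at these loci cannot be told apart. The cause of the difference was not tested.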

How the results depend on the processing

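The medians of the 12 families at the ends of the ranking kept their sign under all 13 alternatives that gave a value (10 families had enough members at 3 RPKM or more, and 8 at 2000 bp or more). The counts of genes at least 1.5-fold higher and lower, 583 and 885, depended more on the settings. They were 934 and 1437 with a pseudocount of 0.1 RPKM, 149 and 70 with 5 RPKM, 1957 and 1844 with no filter on length, 240 and 455 at 2000 bp or more, and 1062 and 1939 when only centred on the median. The higher count was 368 at 3 RPKM or more in both genotypes and 917 after quantile normalization. Of the main calls, 430 higher and 575 lower genes remained when only centred. Of 116 named genes, 11 changed sign then, among them 3 past 1.5-fold: UBQ10, UBQ11 and ACS6 went to -0.19, -0.25 and -0.022, since the trend at their level lies below 0. Those under 1.5-fold included LHCA3, LHCA4, LHCB3, HSC70-1 and HSFC1. Over all alternatives, 14 of 1381 values of named genes had the opposite sign. Leaving out the run of genes on chromosome 2 gave 559 and 881 genes, and leaving out genes that overlap another gave 412 and 631, both alternatives chosen after seeing the data. No paired analysis was possible because the tables hold 1 value per genotype, and for the same reason leaving out a replicate was not run. Depth limits weakly marked genes most: 1 RPKM over 1 kb corresponds to 18.6 reads in Col-0 and 12.0 in sant-null.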
